A study of Mus musculus with 7 samples.

Results

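The 3 arrays described here profile the unmodified cells of the study: mouse embryonic fibroblasts expanded from a wild-type mouse, labelled clones 1, 2 and 3, which had immortalised spontaneously in culture. They are 3 of the 7 arrays in the series and were chosen by their genotype label alone. The others come from fibroblasts of tenascin-C knock-out animals (2 clones) and from wild-type cells stably transfected with a tenascin-C shRNA (2 clones), which share the cell type and the spontaneous immortalisation; no group is compared with another here. For every array 50000 cells were seeded in a well and kept for 2 days in medium with 10% fetal calf serum, with no treatment, before total RNA was taken. Each wild-type value is thus 1 array of 1 labelled clone, and differences between clones and between arrays cannot be told apart. No age is given in the labels used here, and no label used here says whether the 3 clones came from separate animals. The spread between arrays may be technical, which was not tested.

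Embryonic fibroblasts are mesenchymal cells that build the connective tissue matrix: they secrete fibrillar collagens, fibronectin and proteoglycans, and crosslink and remodel them with dedicated enzymes. In culture on plastic with serum they take on contractile features, proliferate, and keep part of the positional gene code of the body region they were taken from. Primary mouse fibroblasts senesce in culture, and lines that escape commonly lose the p53 or the p19Arf checkpoint. Such cells serve as feeder layers and as a reference against which knockout lines are read, so their baseline matters to later comparisons.

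Values are log2 signals, so a difference of 1 is a 2-fold difference in signal. The table holds 34760 probe sets, and 21640 of them carry a single gene symbol, covering 19937 genes; where a gene had several, the probe set with the highest wild-type mean was taken. Array medians over all probe sets were 5.42, 5.43 and 5.48, and pairs of wild-type arrays correlated at 0.986 to 0.990 over probe sets. Probe sets differ in affinity and background, so a rank describes signal, not the number of transcripts. Because no detection call was used, background was read from 1207 olfactory, vomeronasal and trace amine receptor genes, which serve smell and are silent in most other tissues. Their 95th percentile, called the background limit, was 4.95, 4.98 and 5.16 on arrays 1, 2 and 3, and their 99th percentile was 5.90, 5.89 and 6.05.

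Of the 19937 genes, 12643 (63.4%) lay above the background limit on all 3 arrays, 6428 (32.2%) lay at or below it on all 3, and 866 were split between arrays. With the stricter 99th percentile, 9519 genes (47.7%) were above on all 3. A gene between both limits may be weakly expressed or may carry probe background.

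All 7 fibroblast markers lay above the stricter limit on every array and between the 98.98th and 99.97th percentile of all genes. Vim, the mesenchymal intermediate filament vimentin, stood at 12.63, 12.72 and 12.67 on arrays 1, 2 and 3. Col1a1 stood at 11.60, 12.13 and 11.61, and Col1a2, the partner chain of type I collagen, at 11.91, 12.26 and 11.88. Both collagen genes were highest on array 2. Fn1, fibronectin, stood at 11.64, 12.21 and 11.89, and Sparc, a collagen-binding matricellular protein, at 10.90, 11.54 and 11.08. Thy1, a surface glycoprotein used to sort fibroblasts, stood at 11.58, 11.63 and 11.21. Tnc, the tenascin-C gene that the study perturbs in other cells, stood at 10.88, 11.42 and 11.38, a mean of 11.23 ± 0.296 (SD, n = 3), and ranked 188 among all genes. Array 1 was the lowest for Tnc, by 0.491 from the next array.

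The highest signals came from genes of protein synthesis and the cytoskeleton. Eef1a1, the elongation factor that delivers aminoacyl-tRNA to the ribosome, led at 13.48 ± 0.0099 (SD, n = 3). Rpl9 followed at 13.26 ± 0.0337, the cytoplasmic actin gene Actb at 13.14 ± 0.0235 and the poly(A)-binding protein gene Pabpc1 at 12.93 ± 0.0594. Further ribosomal protein genes among the 25 highest were Rpl10 (12.72), Rps2 (12.59), Rplp1 (12.57), Rps18 (12.36) and Rpl4 (12.32), and the translation initiation helicase Eif4a1 stood at 12.50. Of 54 ribosomal protein genes measured through a single symbol, 10 were in the top 50 and 40 in the top 1000, with a median signal of 11.11. With the probe sets chosen, their place was high across the class and not through a few members. It was not computed again without the probe sets numbered on another chromosome, described below.

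Structural and housekeeping genes filled most other places among the 25. The tubulin gene Tubb5 stood at 12.45, the tropomyosin gene Tpm3 at 12.29, and Acta2, the smooth muscle actin that marks contractile myofibroblasts, at 12.51. Lgals1, the secreted lectin galectin-1, stood at 12.52, and Thbs1, the matricellular glycoprotein thrombospondin-1, at 12.32. The folding and stress proteins were represented by Ppia (cyclophilin A, 12.58), Hspa8 (12.44) and Hsp90aa1 (12.32), and redox control by thioredoxin, Txn1 (12.36). The mitochondrial ADP/ATP carrier Slc25a5 stood at 12.42, the mitochondrially encoded subunit ND3 at 12.45, calmodulin Calm2 at 12.31 and the membrane protein Plp2 at 12.28. Rn7sk, a non-coding RNA that holds transcription elongation in check, stood at 12.55. Among these 25 genes Acta2 and Thbs1 were the least even: Acta2 was 12.14, 12.78 and 12.61 on arrays 1, 2 and 3, and Thbs1 was 12.14, 12.26 and 12.57. Both were lowest on array 1.

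**Figure D1:**
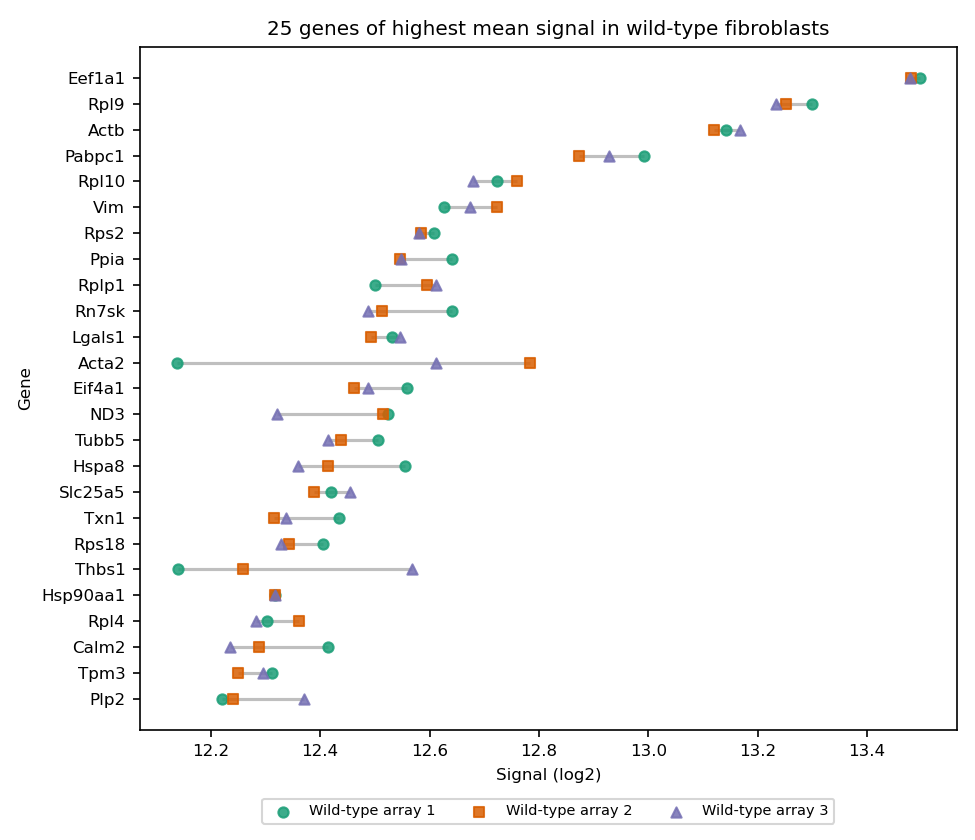
The 25 genes with the highest mean log2 signal (horizontal axis), one row per gene, with one point per wild-type array and a grey line from the lowest to the highest. Most rows span little, from Eef1a1 at a mean of 13.48 to Plp2 at 12.28, and the long lines belong to Acta2 and Thbs1, both lowest on array 1.

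Many of these genes have near-identical processed copies elsewhere in the genome, and this bears on their ranks. Probe set numbers run along the chromosomes, so each chosen probe set was compared with the 20 single-symbol probe sets nearest in number. For 24 of the top 50 genes the neighbours lay mostly on another chromosome than the gene, against 299 of all 19937 genes, and this check was added after the values were seen. Rpl9, for instance, is a chromosome 5 gene, but its chosen probe set is numbered among those of chromosome 2. With such probe sets left out, 31 of the 50 genes stayed in the top 50, Rpl9 stood at 12.10 instead of 13.26, and Eef1a1, Actb, Pabpc1, Rpl10 and Vim led. The signals of Rpl9, Rps2, Ppia, Rn7sk, Eif4a1, Hspa8, Slc25a5, Rps18, Calm2, Tpm3 and Plp2 are uncertain for this reason.

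Matrix genes were broadly present, though at very different levels. Of 36 fibroblast and mesenchymal genes measured, 30 (83.3%) lay above the background limit, against 63.4% of all genes, and 26 were in the top 10%. Besides the markers, Cdh11, the mesenchymal cadherin, stood at 11.55, 11.77 and 11.65, and the mesenchymal transcription factor Prrx1 at 10.91, 11.07 and 11.11. Pdgfra, the PDGF receptor typical of fibroblasts, stood at 11.40, 10.98 and 11.17. Below the limit on all arrays were Fap (3.42, 4.17 and 4.06), a serine protease of activated fibroblasts, and Meox1 (4.49, 4.59 and 4.70), a paraxial mesoderm factor. Of the transcription factors that drive the mesenchymal state, 5 chosen after their values were seen were above the stricter limit. Twist1 had a mean of 9.52, Snai1 9.31, Snai2 9.15, Zeb1 8.80 and Zeb2 7.47. Chosen this way, they do not describe the programme as a whole.

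Among 35 collagen chain genes, 34 (97.1%) lay above the background limit, against 63.4% of all genes. Above the stricter limit there were 25, against 47.7% of all genes, but 6 were in the top 10%. After Col1a1 and Col1a2 came Col3a1, the partner fibrillar collagen of elastic tissues, at 9.06, 10.71 and 9.08, and Col6a1, of beaded microfibrils, at 9.29, 10.03 and 9.36. Col3a1 was high on array 2 and nearly equal on the other arrays. At the low end were the hypertrophic cartilage chain Col10a1 (5.04, 4.78 and 5.15) and Col8a2 (5.18, 5.34 and 5.48). All 18 measured enzymes and chaperones of collagen processing were above the stricter limit, against 47.7% of all genes. They were led by P4hb, a subunit of prolyl 4-hydroxylase (mean 11.68), the procollagen proteinase enhancer Pcolce (11.16), the cyclophilin Ppib (10.97) and the crosslinking enzyme Lox (10.73).

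Of 43 matrix glycoproteins and proteoglycans 38 (88.4%) lay above the background limit, against 63.4% of all genes. Thbs1, the small proteoglycan Bgn (12.09), Fn1 and the fibulin Fbln2 (11.75) were at the top. Tnr (4.49), a tenascin of the nervous system, and Fmod (4.62), a proteoglycan of tendon, lay near background. In the basement membrane list 11 of 12 genes were above the limit and 7 above the stricter one, against 63.4% and 47.7% of all genes. They were led by nidogen Nid1 (10.69), Lamb1 (10.13), Lama4 (9.33) and Lamc1 (8.87), while the epithelial laminin chain Lama3 (4.90) was at background. Of 20 integrins 17 were above the background limit, but 8 were above the stricter one, against the same shares of all genes. Itgb1, the common beta chain, stood at 11.75, 11.89 and 11.99, followed by Itgav (10.24), Itgb5 (9.73) and the fibronectin receptor chain Itga5 (8.79). The epithelial chain Itgb6 (3.83) and the leukocyte chain Itgb2 (4.85) lay near background.

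Matrix proteases and their inhibitors were mostly above background. Timp2 (10.98) and Timp1 (10.84), both metalloproteinase inhibitors, and Mmp14 (10.83), a membrane-anchored collagenase, led the list with the sheddase Adam9 (10.76), and Mmp8 (3.32), the neutrophil collagenase, and Timp4 (3.93) were lowest. Of 28 members 23 (82.1%) were above the background limit, against 63.4% of all genes. The 24 contractile genes were all above this limit, with 18 in the top 10%: after Acta2 and Tpm3 came Tpm4 (11.90) and Actn4 (11.80). Smooth muscle myosin, Myh11 (5.52, 5.65 and 5.65), the mark of mature smooth muscle, lay between both background limits, as did Mylk on arrays 1 and 3 (5.63 and 5.64, against 6.31 on array 2); both were chosen after their values were seen.

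**Figure D2:**
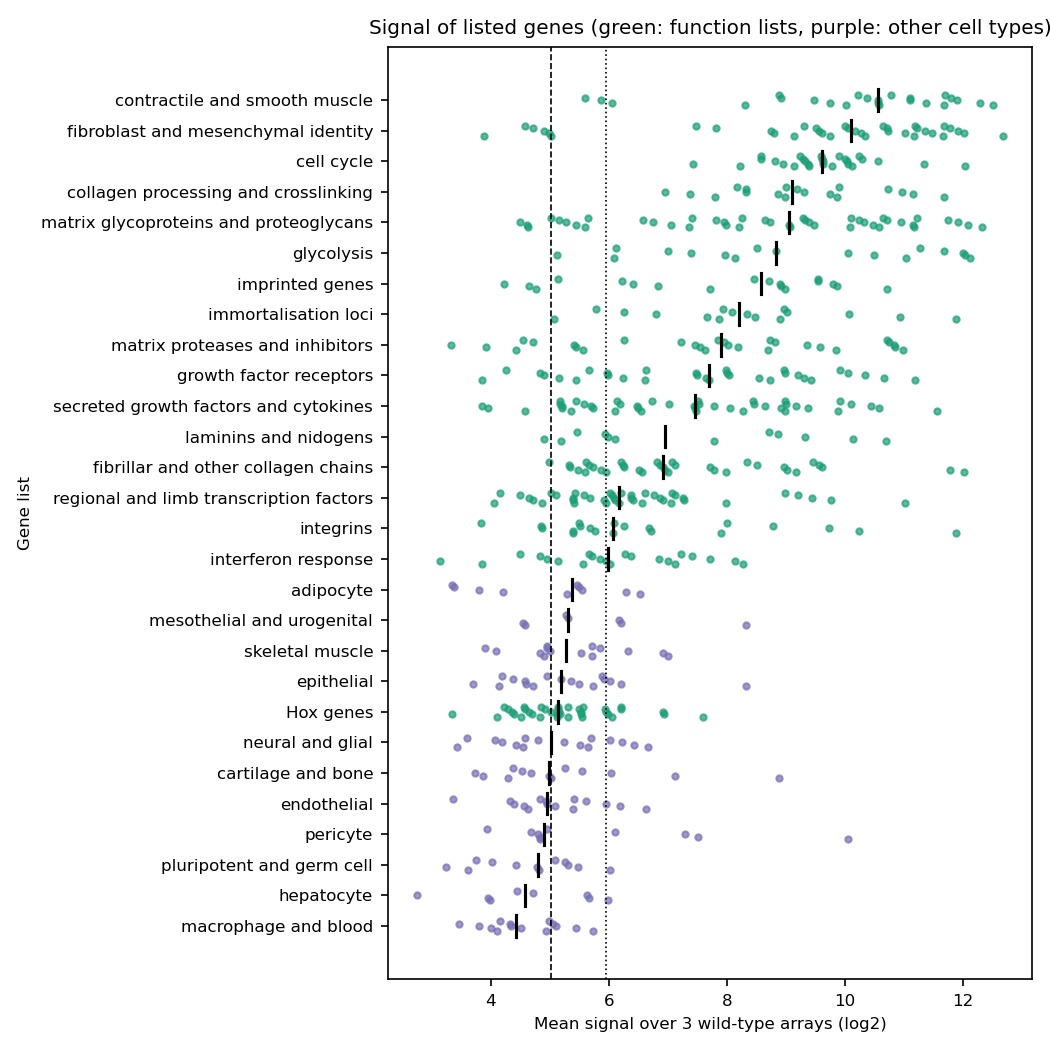
Mean log2 signal of each measured gene (points) in 28 gene lists, ordered by list median (black bars), with function lists in green and lists of other cell types in purple. The dashed and dotted lines are the 95th and 99th percentile of chemosensory receptor genes averaged over arrays. Contractile, fibroblast and cell cycle medians lie above 9, and the medians of all lists of other cell types lie between the chemosensory limits or below them.

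Of the 11 lists that mark other cell types, 10 had a smaller share of members above the background limit than the 63.4% of all genes, and the mesothelial and urogenital list had a larger one (5 of 7). The share above the background limit was 14.3% for macrophage and blood genes (2 of 14), 16.7% for pluripotent and germ cell genes (2 of 12), 33.3% for endothelial (5 of 15) and 37.5% for neural and glial genes (6 of 16), against 63.4% of all genes. Above the stricter limit there were 0 of 14, 0 of 12, 2 of 15 and 3 of 16. The other lists lay between 37.5% and 52.9%: hepatocyte 3 of 8, cartilage and bone 5 of 13, pericyte 4 of 10, adipocyte 5 of 10, skeletal muscle 7 of 14 and epithelial 9 of 17. Of these, 0, 3, 4, 1, 3 and 3 genes were above the stricter limit, as were 3 of the 7 mesothelial and urogenital genes, against 47.7% of all genes. Several defining genes were near background, picked from lists in which other members were above the limit. The pan-leukocyte gene Ptprc stood at 4.16 on every array and the endothelial adhesion gene Pecam1 at 4.43, 4.33 and 4.43. The epithelial cadherin Cdh1 stood at 4.58 on every array, and the germ cell gene Dazl had a mean of 3.25. The adipokine gene Adipoq (mean 3.38), the bone factor Sp7 (4.54), the liver gene Alb (3.98) and the myogenic factor Myf5 (3.91) were also near background. Other members of these lists were higher. Flt1 (mean 6.64) of the endothelial list and Pparg (6.29) of the adipocyte list were above the stricter limit on every array. Lpl (6.53), of the adipocyte list, was above the background limit. So were 7 of 14 skeletal muscle genes, 3 of them above the stricter limit. A marker above the limit does not by itself show the cell type: Hnf4a (5.99), a liver and gut factor, and Nanog (5.30) were above it too.

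Some genes on these lists had clear signals. Sox9, which directs cartilage formation but is also active in many progenitors, stood at 8.93, 8.86 and 8.85, with its cartilage target Col2a1 at 6.75, 7.79 and 6.83 and Acan at 4.91, 5.20 and 4.96. The simple-epithelial keratin Krt19 stood at 8.22, 8.25 and 8.51, while its usual partner Krt8 (5.59, 5.98 and 6.11) lay near the stricter limit and Epcam (4.54, 4.54 and 4.72) near background. Sox2, a stem and neural progenitor factor, was 7.50 on array 1 against 5.53 and 5.02. Of the pericyte genes, Pdgfrb (10.05), Cspg4 (7.52), Mcam (7.29) and Notch3 (6.11) were above the stricter limit, and Rgs5 (4.69) and Higd1b (3.94) were not.

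Receptors and secreted factors were read as lists too, and whether their signals act in these cells was not tested. Of 31 growth factor receptors 27 (87.1%) were above the background limit, against 63.4% of all genes. They were led by Pdgfra, the TAM-family kinase Axl (10.67), the collagen receptor Ddr2 (10.34) and Pdgfrb, and Erbb4 (3.85) and Ntrk2 (4.27) were near background. Of 43 secreted factors 40 (93.0%) were above the background limit. Fgf7, a mesenchymal growth factor for epithelia, was highest at 11.28, 11.60 and 11.78, followed by the Wnt-binding Sfrp2 at 9.88, 11.53 and 10.31, the BMP antagonist Grem1 at 10.46, 10.06 and 10.79 and the chemokine Cxcl12 at 9.22, 10.40 and 10.71. Bmp2 (3.85) and Csf2 (3.95) were lowest. Of 22 interferon response genes 17 (77.3%) were above the limit, against 63.4% of all genes. Above the stricter limit there were 10, against 47.7% of all genes, and in the top 10% there were 0. Ifit2 was highest at 8.27, then Ddx58 (8.13), Stat2 (7.72) and Bst2 (7.41), and Mx1 (3.15) and Mx2 (3.85) were lowest.

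Genes of proliferation and of the senescence checkpoints were above the background limit on every array, Tert apart. Of 16 genes of the immortalisation list 14 were above the stricter limit on every array, against 47.7% of all genes, and Rb1 and Tert were not. All 27 cell cycle genes were above the stricter limit, against 47.7% of all genes, led by Pcna (12.03), Rrm1 (11.34), Ccna2 (10.56) and Mcm3 (10.29). Of these 27 genes 0 varied over 2-fold between arrays, against 2.85% of all expressed autosomal genes. At that share a list of this size would hold few or none. Pcna's chosen probe set is among those numbered on another chromosome. The checkpoint locus Cdkn2a, which encodes p16Ink4a and p19Arf, stood at 8.85, 8.96 and 8.90, with its neighbour Cdkn2b at 7.99, 8.28 and 7.99. Whether this signal comes from intact transcripts is not shown by a probe set that does not separate both products. The p53 antagonists Mdm2 and Mdm4 stood at means of 7.87 and 6.80, the retinoblastoma family at 5.79 (Rb1), 8.34 (Rbl1) and 7.67 (Rbl2), and their target factor E2f1 at 7.94. Cdk4 (11.89), Ccnd1 (10.94) and Myc (10.07), which drive entry into the cycle, were the highest of the list, ahead of Bmi1 (9.02), Cdk6 (8.97) and Cdkn1b (8.47). Tbx2, a repressor of the Cdkn2a locus, was at 6.26, and Tert, the telomerase catalytic subunit, at 5.08, split around the background limit. The p53 gene itself is not analysed here, because no probe set carried it as a single symbol.

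Hox genes encode transcription factors that carry positional identity. Of 37 Hox genes 20 (54.1%) were above the background limit, against 63.4% of all genes, and 5 were above the stricter one, against 47.7%. In the top 10% there were 0. Hoxa5 was highest at 7.64, 7.47 and 7.70, then Hoxa4 (6.78, 6.91 and 7.14), Hoxd8 (6.90, 6.66 and 7.20) and Hoxc13 (7.30, 6.11 and 5.23). Hoxc4 (3.34) and Hoxc11 (4.10) were lowest. Among regional factors, Prrx1 was followed by Tbx15 (9.77), a factor of craniofacial and limb mesenchyme, and by Meis2 (9.44) and Prrx2 (9.21). The limb-type factors Tbx5 (4.06) and Tbx4 (4.65) and the hindlimb-associated Isl1 (4.16) were near background on all arrays; Tbx4 was named after its value was seen. Of 17 glycolysis genes 16 (94.1%) were above the limit, against 63.4% of all genes. They were led by Pgk1 (12.13), Hk1 (12.03), Ldha (12.01) and Pkm (11.69), the Hk1 and Pkm probe sets being among those numbered on another chromosome.

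The arrays were close to each other for most genes. Over 13070 autosomal genes above the background limit on at least 1 array, the range between the highest and lowest of the 3 arrays had a median of 0.228, which is 1.17-fold, and a 95th percentile of 0.774. In all, 372 genes (2.85%) had a range above 1; without array 1, array 2 or array 3 there were 153, 238 and 195. Arrays 1 and 3 differed by more than 1 for 237 genes, arrays 1 and 2 for 195 and arrays 2 and 3 for 152. With 1 array for each clone there is no replicate of a clone, so these differences carry no test. Genes at the edge of the 50 most variable were Ublcp1 (SD 1.13) just inside and Gbp9 (SD 1.11) just outside.

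The 4 genes of largest SD were all highest on array 3, and Cxcl5, Ptprz1 and Ccl2 among the 20 of largest SD shared that pattern. Saa3, the inducible serum amyloid A of connective tissue, stood at 4.02, 4.43 and 10.66, an SD of 3.72. Il1a, the cytokine interleukin-1 alpha, stood at 3.95, 3.97 and 9.01. Lcn2, the iron-siderophore carrier lipocalin-2, stood at 4.93, 5.71 and 10.04. On array 1 these 3 genes lay at or below the background limit, and on array 3 they lay among the well-expressed genes. Steap4, a metalloreductase induced by inflammatory cytokines, stood at 4.86, 4.78 and 8.98, and the neutrophil chemokine Cxcl5 at 6.40, 6.30 and 10.43. The monocyte chemokine Ccl2 stood at 6.94, 7.36 and 9.87. The receptor phosphatase gene Ptprz1 shared the pattern at 3.17, 3.71 and 6.32. In each of these genes arrays 1 and 2 lay closer to each other than either did to array 3.

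In the 50 most variable genes, array 3 stood apart on the high side for 13 (26%), against 21.4% of all expressed autosomal genes. Those outside the 20 leading genes were named after their values were seen. They were Cxcl1 (7.48, 7.54 and 9.80), Mmp3 (6.52, 6.42 and 8.76), Lce1h, Ch25h, the copper oxidase ceruloplasmin gene Cp (7.40, 8.27 and 9.92) and the Wnt agonist Rspo3. The 26% is near the 21.4%. Genes such as Saa3 and Il1a passed the filter through array 3 alone, where they were high. High-side counts of every array are shaped in part by this filter, and no excess is read from them. Of the 14 macrophage and blood genes, Ptprc, Adgre1, Itgam and Mpeg1 were near background on every array, and the list's mean signal was 4.56, 4.49 and 4.66 on arrays 1, 2 and 3. Cd14 was 4.68, 4.95 and 5.72, and Cd68 was 5.86, 5.75 and 5.59. The part of such cells in these values was not tested, and in bulk RNA fewer cells of a type and less RNA per cell cannot be told apart. The median difference of the interferon list from the mean of the 3 arrays was 0.110, -0.223 and 0.088 on arrays 1, 2 and 3, and Il6 (4.25, 4.47 and 5.04) was near background.

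The kB element is known from chemokine promoters, and its letters were searched in the 250 bases upstream of each gene start in RefSeq (GRCm38.p6). The motif was GGGA, then 2 bases of any kind, then TTCC, on both strands, and matches on both strands may overlap. It was found in 1 of the 10 genes of the array 3 group that had a promoter entry, Cxcl1, against 1.36% of all 27025 genes with one. In the other groups of the 50 most variable genes it was found in 0 of 27. With 1 gene holding it, no difference between groups is read from these counts. Whether the element bears on any signal here was not tested. The last 120 bases before the Cxcl1 start (chr5:90891125-90891244, plus strand) hold a match on each strand, starting 71 and 70 bases upstream and sharing 9 bases; capitals mark both. Those of Saa3 (chr7:46715677-46715796, minus strand), the most variable gene, are shown for comparison and hold none. No match says only that these letters are absent from this window.
Cxcl1: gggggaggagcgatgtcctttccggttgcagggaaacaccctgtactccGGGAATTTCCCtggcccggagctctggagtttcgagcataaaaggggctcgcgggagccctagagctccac
Saa3: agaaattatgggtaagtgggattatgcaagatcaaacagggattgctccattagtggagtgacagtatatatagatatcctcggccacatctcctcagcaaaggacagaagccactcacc

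Array 1 was low for some genes of large SD, among them the matrix genes Lum and Postn. Lum, the collagen-fibril proteoglycan lumican, stood at 5.06, 9.26 and 9.13, so array 1 was just above its background limit. Postn, periostin, a matricellular protein of connective tissue under load, stood at 8.91, 11.75 and 11.26. The long non-coding RNA gene Mexis stood at 4.83, 8.37 and 7.92, and Plac8 at 5.20, 6.98 and 8.30. For 11 of the 50 most variable genes (22%) array 1 stood apart on the low side, against 18.7% of all expressed autosomal genes. Named after their values were seen, these also included the Wnt modulators Sfrp1 (6.20, 8.02 and 8.31) and Rspo2, the activin antagonist Fst, the heparan endosulfatase Sulf1 and the protease Ctsc. Serpina3n (6.19, 8.10 and 9.07) and Cyp1b1 (8.74, 10.81 and 10.53) made up the rest. The 22% is near the 18.7% and is not read as a result about these genes. Dcn, the neighbour of Lum in gene order, stood at 9.61, 10.93 and 11.62.

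Array 1 was also often the lowest in the contractile list, in several matrix lists and in some lists outside the matrix, though not in all. Array 1 alone was lowest for 18 of 23 expressed autosomal contractile genes, for 25 of 33 collagen chains, for 24 of 39 matrix glycoproteins and for 12 of 18 integrins, against 32.6% of all expressed autosomal genes. Tagln, an actin-binding protein of smooth muscle, stood at 10.45, 11.53 and 11.33, the myosin light chain Myl9 at 9.20, 11.14 and 10.80, and the collagen crosslinker Lox, of the collagen processing list, at 9.59, 11.48 and 11.11, all named after their values were seen. Outside the matrix, array 1 alone was lowest for 24 of 35 regional and limb transcription factors and 24 of 40 secreted factors. It was lowest for 20 of 33 fibroblast and mesenchymal genes, but for 5 of 27 cell cycle and 2 of 19 interferon response genes. In the collagen processing list array 1 was lowest for 6 of 18 genes and array 3 for 11 of 18, and in the protease and inhibitor list array 1 was lowest for 9 of 23. Single genes also differed: Itga3, a laminin receptor chain, was 9.08, 7.32 and 7.32, and Bgn, which is X-linked, was 12.10, 12.09 and 12.10. Array 1 stood apart on the high side for 8 of the 50 genes (16%), against 20.3% of all expressed autosomal genes. Named after their values were seen, these included the complement inhibitor Cd55 (6.70, 4.53 and 3.89), the lipoprotein-associated phospholipase Pla2g7 (9.34, 7.40 and 6.68) and Sox2.

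Several genes of large SD were highest on array 2. Igf2, the imprinted fetal growth factor, stood at 6.96, 11.04 and 7.38. Igfbp2, which binds it, stood at 6.61, 9.68 and 6.31. Igfbp4 stood at 8.30, 9.66 and 6.55, highest on array 2 but furthest apart on array 3. Igfbp5 (7.47, 9.06 and 6.36) and Pappa, the protease that cleaves IGF-binding proteins (5.31, 7.80 and 6.02), were named after their values were seen and were highest on array 2 as well. The retinaldehyde dehydrogenase relative Aldh1a7 stood at 4.09, 7.80 and 3.96, the small proteoglycan Ogn at 4.53, 7.99 and 5.72 and the growth factor Clec11a at 5.72, 8.66 and 5.99. For 10 of the 50 genes (20%) array 2 stood apart on the high side, against 11.7% of all expressed autosomal genes. For 1 (Prl2c5, 8.95, 6.99 and 8.95) it stood apart on the low side, against 10.7%. Aldh1a7 was above the background limit on array 2 alone, so it passed the filter through the array where it was high.

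Array 3 stood apart on the low side for 7 of the 50 genes (14%), against 17.2% of all expressed autosomal genes. Dlk1, an imprinted inhibitor of fat cell formation, stood at 11.07, 10.39 and 7.94, and the chemokine Cxcl14 at 9.78, 9.09 and 6.27. Dynap stood at 10.17, 9.24 and 6.46. The imprinted gene Mest was also low there, at 9.05, 9.55 and 7.53, as was Plagl1 at 7.98, 8.31 and 6.87 (both named after their values were seen). Grb10, a further imprinted growth regulator, was near background on all 3 arrays at 4.63, 4.70 and 4.63.

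**Figure D3:**
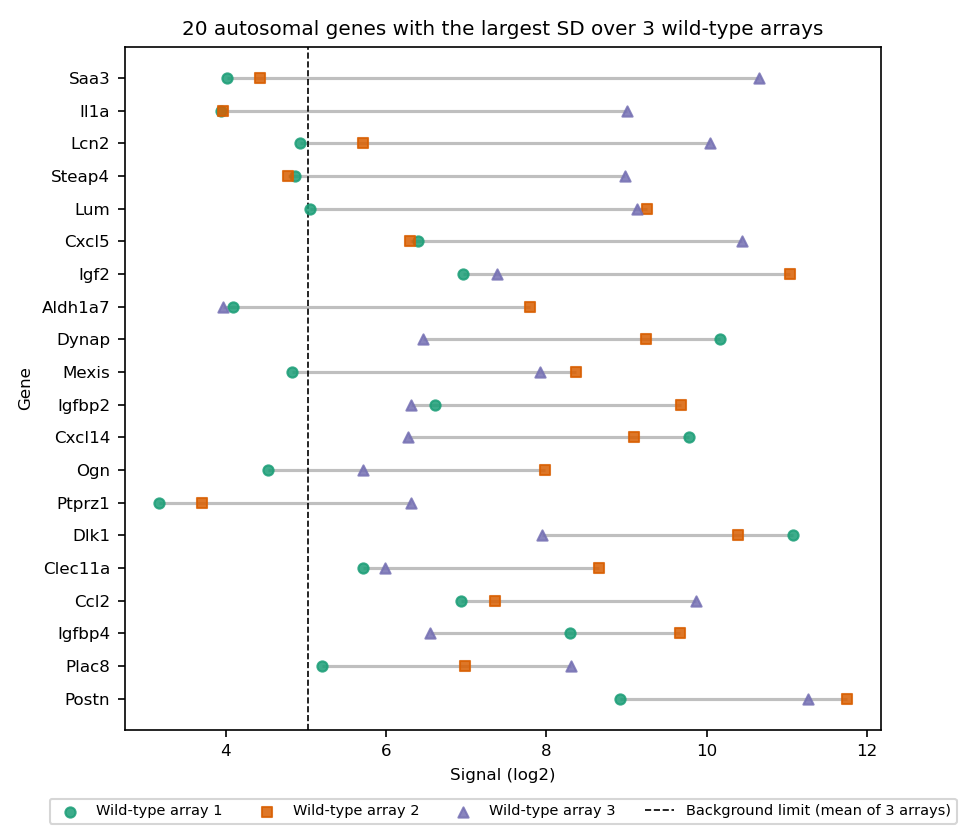
Log2 signal on each wild-type array (points) of the 20 autosomal genes with the largest SD, in order of SD from the top; grey lines join the lowest and highest array and the dashed line is the background limit averaged over arrays. The purple triangles of array 3 stand alone on the right for Saa3, Il1a, Lcn2, Steap4, Cxcl5, Ptprz1 and Ccl2, the orange squares of array 2 for Igf2, Aldh1a7, Igfbp2, Ogn and Clec11a, and the green circles of array 1 alone on the left for Lum, Mexis and Postn.

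Among expressed autosomal members, a range above 1 was seen for 6 of 15 imprinted genes, 14 of 40 secreted growth factors and cytokines, 8 of 23 matrix proteases and inhibitors, 5 of 18 integrins and 10 of 39 matrix glycoproteins, against 2.85% of all such genes. It was seen for 0 of 27 cell cycle genes, 0 of 16 immortalisation genes and 0 of 16 glycolysis genes, and for 1 of 23 Hox genes; counts of 0 in lists of this size are near the 2.85% and are not read as evenness of these genes. Growth factor receptors stood between, at 2 of 27, the 2 being Pdgfrb (9.42, 10.24 and 10.48) and Egfr (5.69, 7.06 and 7.11). By signal level, the share with a range above 1 lay between 2.07% and 3.83% in each of 5 equal groups of genes by mean signal. The lists were chosen with earlier results of these data known, so their shares cannot test whether these classes vary more than others.

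**Figure D4:**
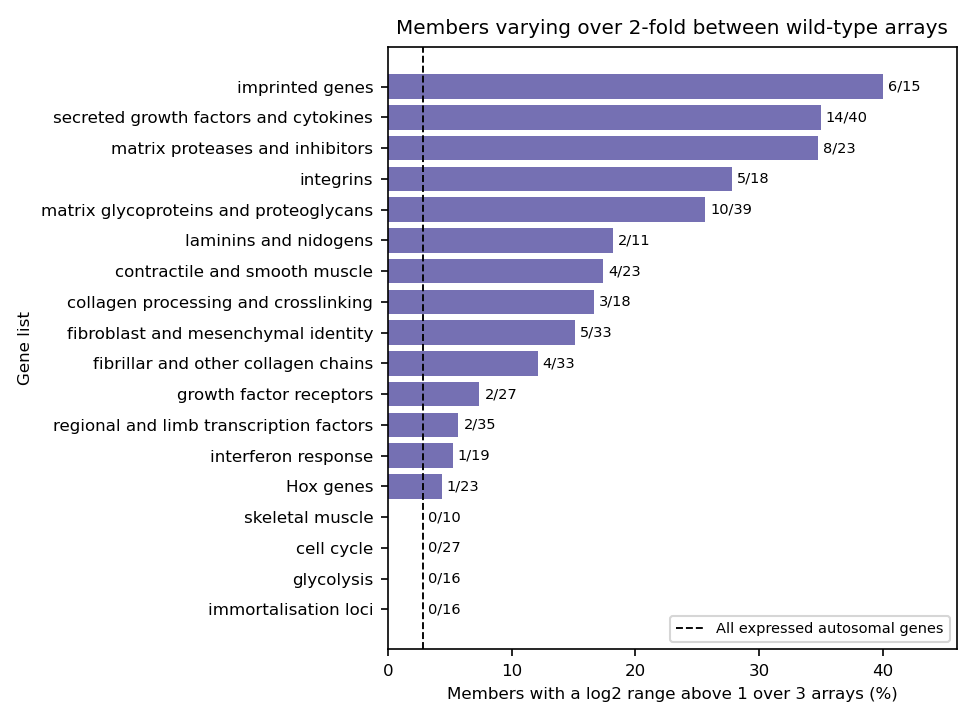
Share of expressed autosomal members with a log2 range above 1 over the 3 wild-type arrays (bars), for the lists with at least 10 such members; the fraction beside each bar gives the counts. The dashed line marks 2.85%, the share over all expressed autosomal genes. Imprinted, secreted and protease genes reach 40%, 35% and 34.8%, while cell cycle, glycolysis and immortalisation genes have none. The lists were chosen with earlier results of these data known.

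The same genes also tended to differ inside the other clone pairs, which the ranking did not use. Of the 50 most variable wild-type genes, 18 (36%) differed by more than 1 between both knockout clones, against 2.3% of expressed autosomal genes, and 19 (38%) between both knockdown clones, against 1.64%. The median difference was 0.653 and 0.656, against 0.172 and 0.154 over all expressed autosomal genes. In 9 genes it exceeded 1 in both pairs, and in 22 in neither. Lum (1.59 in the knockout and 1.10 in the knockdown pair), Ogn (1.23 and 2.06), Cxcl5 (1.78 and 1.14), Clec11a (1.11 and 1.98) and Ccl2 (1.43 and 1.58) were among the 9. Il1a (0.05 and 1.20), Steap4 (0.46 and 0.00) and Igf2 (0.81 and 0.68) were not.

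Sex-linked genes were set aside from the ranking. Among 400 expressed X- and Y-linked genes, 25 (6.25%) had a range above 1, against 372 of 13070 expressed autosomal genes (2.85%). The median range was 0.228 in both sets. The largest SDs belonged to X-linked genes: Tmem47 (5.69, 8.66 and 9.27), Rps6ka6 (6.96, 4.58 and 4.29), Nudt10 (6.68, 4.21 and 4.13) and Kctd12b (7.90, 5.91 and 5.67). In each of them array 1 stood apart, low for Tmem47 and high for the other 3.

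Whole chromosomes shifted slightly between arrays. The median difference of chromosome 5 genes from their mean over the 3 arrays was 0.111 on array 1, -0.060 on array 2 and -0.062 on array 3 (868 genes), a span of 0.173 or 1.13-fold. Array 1 alone was highest for 61.8% of these genes, against 32.8% of all autosomal genes. Chromosome 19 spanned 0.134, from -0.066 on array 1 to 0.068 on array 2, and chromosome 2 spanned 0.122, from -0.072 on array 1 to 0.050 on array 3. All other autosomes spanned at most 0.101. Without array 1 the largest span over autosomes was 0.085. Cxcl5, Cxcl1 and Steap4 lie on chromosome 5, where the array 3 median was -0.062; Saa3 lies on chromosome 7 and Il1a on chromosome 2, where it was 0.050 and array 3 was the highest array on both.

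**Figure D5:**
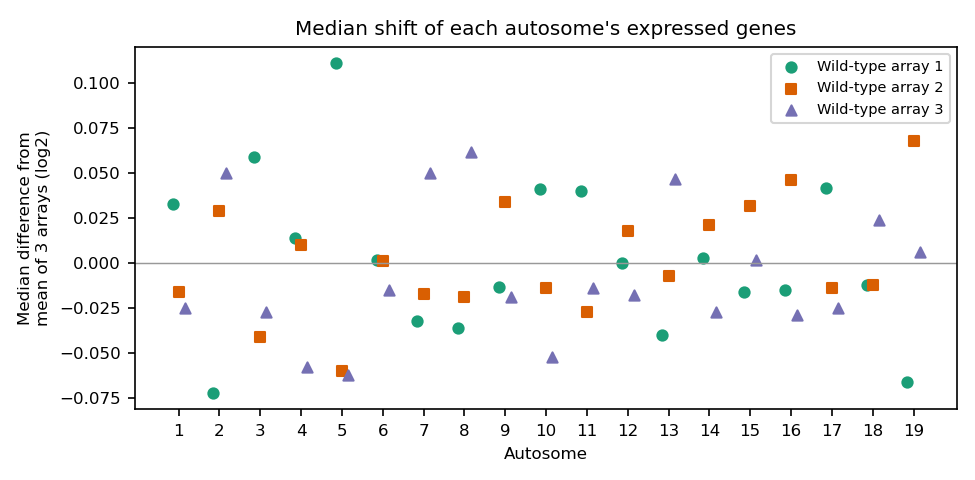
Median difference of each wild-type array from the mean of the 3 arrays (vertical axis, log2) over the expressed genes of each autosome (horizontal axis). Chromosome 5 stands out with array 1 at 0.111 and the other arrays at -0.060 and -0.062, and chromosomes 2 and 19 have array 1 as the lowest.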

How the data were processed

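The deposited table holds log2 signals for 7 arrays, 1 column per array; the submitters' processing notes name affy and R 2.8.0. How signals were corrected, normalized and summarised is not given in the sources used here. That the scale is log2 follows from the range of the values. The 3 wild-type columns were used as deposited, with Python 3.11.15, pandas 2.3.3 and numpy 2.4.6. The platform annotation lists 22961 probe sets with genes, 1321 of them with several symbols, which were left out; 21553 of 21640 single-symbol probe sets matched the RefSeq gene table of GRCm38.p6, used for current names, chromosomes and gene order. For arrays, their number limits the precision. No test was made, since there is 1 group; SDs are over 3 arrays. The ranking code was checked on simulated arrays with large shifts over small, even noise. This checks the code and does not test the ranking of the real genes. Alternatives covered the background limit, the normalization, the probe set rule, the filter and each array left out.

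The members and gene lists were chosen with earlier results of these data known. Genes named are the 7 markers, the 25 highest signals, up to 4 highest and 2 lowest of each list, all immortalisation genes, the 20 autosomal and 4 sex-linked genes of largest SD, and the 3 chromosomes of largest shift; any other gene named was chosen after its values were seen.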

Additional observations from a re-analysis of the deposited data

How the results depend on the processing

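The count above background lay between 9519 and 14613 over all alternatives, and all 7 markers stayed above every limit tried. The membership of the 50 highest signals depended on the probe set rule: 28 stayed with the mean over a gene's probe sets, 33 when probe sets of several symbols were kept under their first, and 31 with probe sets numbered on the gene's own chromosome, an alternative added after seeing the data. Leaving out 1 array kept 48 to 49. The count of autosomal genes with a range above 1 was 153 without array 1, 238 without array 2 and 195 without array 3, since 2 arrays span less than 3, and 357 to 384 otherwise. Of the 50 most variable genes 26 to 36 stayed with 1 array left out (29 without array 1, 26 without array 3) and 47 to 50 otherwise. The largest chromosome span was 0.241 with median centring, 0.254 over genes above the array median, and 0.085 to 0.178 with 1 array left out, 0.085 being the value without array 1; why centring and the filter raised it was not tested. Of 378 further values, 41 moved, of which 14, 14 and 6 under the 3 other background limits. No paired analysis was possible because no result comes from a test between groups.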

Other observations

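Some of the most variable genes were neighbours along the chromosome. Of the 100 most variable autosomal genes, 99 had a place in the RefSeq order of protein-coding genes, and 9 pairs lay within 5 protein-coding genes of each other; in 7 of the 9 the same array stood apart on the same side. These were Lum and Dcn (array 1 low), Igfbp2 and Igfbp5 (array 2 high), Ogn and Aspn (array 2 high), Cxcl5 and Cxcl1, Ccl2 and Ccl7, Tmem176b and Tmem176a (all array 3 high), and Pla2g7 and Rcan2 (array 1 high). Aspn, a small proteoglycan like Ogn, stood at 9.25, 11.28 and 9.70 on arrays 1, 2 and 3, and the chemokine Ccl7 at 7.76, 8.34 and 9.82. The membrane protein genes Tmem176b and Tmem176a stood highest on array 3, at 11.03 and 8.99, against 9.63 and 7.55 on array 1. In the pairs Pappa and Brinp1, and Fst and Itga1, different arrays stood apart. Such pairs were not counted over all expressed autosomal genes, so no excess of neighbours or of shared patterns is read from these counts.

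Array 2 alone was lowest for 14 of 19 expressed autosomal interferon response genes and for 17 of 27 cell cycle genes, against 3269 of all 13070 expressed autosomal genes. On array 2 the interferon list median was 0.223 below the mean of the 3 arrays. Ifit1 stood at 6.22, 5.26 and 5.55 and Oasl2 at 6.44, 5.90 and 6.49. Cxcl10, an interferon-induced chemokine, differed from this and from the array 3 chemokines, at 8.03, 6.30 and 6.25. The cell cycle list had a median 0.075 below the mean on array 2.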
